A study of Mus musculus with 6 samples.

Results

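The genes described here encode the subunits of phosphodiesterase 6 (PDE6) in the retina of the rd10 mouse, whose lesion lies in 1 of them. They were taken by symbol from the gene list of the deposited tables, and all 6 symbols (Pde6a, Pde6b, Pde6g, Pde6c, Pde6h and Pde6d) were found among 32285 genes. Nuclei of frozen retinas were profiled in 6 droplet libraries of the strain B6.CXB1-Pde6b-rd10/J. Mice had received saline (phosphate-buffered) or 20 ng of recombinant IL-27, a cytokine, in the vitreous of 1 eye on postnatal day 18, and retinas were collected on postnatal day 20. The saline group holds replicates 1, 2 and 6, and the IL-27 group replicates 4, 5 and 10. All 6 libraries carry the rd10 allele of Pde6b, a missense change, so no level below is set against a wild-type gene and the counts do not separate alleles. The labels do not say whether a library is 1 retina or a pool, so p-values measure the spread between these libraries only.

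PDE6 is the effector enzyme of phototransduction: light-activated transducin relieves its inhibition, the enzyme hydrolyses cGMP, and cGMP-gated channels in the outer segment close. In rods the enzyme pairs a catalytic alpha subunit (Pde6a) with a catalytic beta subunit (Pde6b), held by an inhibitory gamma subunit (Pde6g), whereas cones use the catalytic alpha-prime subunit (Pde6c) with their own inhibitory subunit (Pde6h). Pde6d encodes the delta subunit, a carrier of prenylated proteins that is made in many tissues and brings PDE6 and other cargo to the outer segment. Loss of PDE6 activity in rods raises cGMP and is a known cause of rod degeneration.

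Promoter bases were available in the RefSeq table (GRCm38.p6) for 3 of the 6 genes, and they are shown because Pde6b holds the lesion, Pde6h is the inhibitory subunit of the other photoreceptor class, and Pde6d is the broadly expressed member. Each run is the 250 bases before the RefSeq start, 5′ to 3′ on the strand of the gene. Pde6b lies at chr5:108388123-108388372 on the plus strand, Pde6h at chr6:136954273-136954522 on the plus strand, and Pde6d at chr1:86582786-86583035 on the minus strand. The RefSeq start of Pde6h lies inside the longer GENCODE span of the gene. Capitals mark a match to 1 of 2 motifs searched on both strands, the CRX core (TAATCC or GGATTA) and a MAF core (TGCTGA or TCAGCA), named for homeobox and leucine-zipper factors of photoreceptors; the motifs do not overlap.
Pde6b: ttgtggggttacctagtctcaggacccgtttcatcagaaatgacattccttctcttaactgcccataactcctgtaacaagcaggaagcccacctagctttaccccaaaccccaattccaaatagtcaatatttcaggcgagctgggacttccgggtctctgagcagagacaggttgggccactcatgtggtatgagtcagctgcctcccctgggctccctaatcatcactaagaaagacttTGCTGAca
Pde6h: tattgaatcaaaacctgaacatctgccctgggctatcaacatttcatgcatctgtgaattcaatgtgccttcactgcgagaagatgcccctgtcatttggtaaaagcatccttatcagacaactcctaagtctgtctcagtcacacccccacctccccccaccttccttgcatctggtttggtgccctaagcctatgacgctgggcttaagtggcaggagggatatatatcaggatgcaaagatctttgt
Pde6d: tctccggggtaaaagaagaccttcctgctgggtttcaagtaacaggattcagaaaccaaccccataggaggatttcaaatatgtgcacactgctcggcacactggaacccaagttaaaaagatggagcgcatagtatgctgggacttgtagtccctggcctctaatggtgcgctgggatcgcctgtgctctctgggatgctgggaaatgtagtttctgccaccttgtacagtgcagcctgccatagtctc
The Pde6b promoter held 1 MAF core, at bases -8 to -3 before the start on the forward strand, and no CRX core. No match stood in the other two windows. Among all 32851 promoters of the same length, 16.1% held the MAF core and 6.25% the CRX core. A match is a description of letters in this window.

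Libraries held 8968 to 9965 barcodes and 36678332 to 48260748 UMIs, and any pair of libraries shared 18 to 30 barcodes (at most 0.335% of the smaller one). The 52191 nuclei retained formed 35 clusters, clustered without the 6 subunit genes, and each cluster was named "X-like" from fixed markers and is called by the plain name from here on. The rod cluster showed 6 of 6 rod markers and held 15526 nuclei, of which 14358 entered the sums (1861 to 3309 per library), and the cone cluster showed 6 of 6 cone markers and held 3331, of which 3129 entered (459 to 637 per library). Rod nuclei were shallow, at a median of 1187.5 to 1294 UMIs per library against 2435.5 to 2747 in cones. Cluster 1, the Muller cluster of 4759 nuclei, showed all 10 Muller markers, but none of them was among its 10 leading genes, which held Flt1 of the endothelial list, so it is compared by its number. Astrocytes rest on 3 markers, and some of the 13 clusters of amacrine cells on as few as 3 of 8. The other named types were bipolar cells (BC), amacrine cells (AC), horizontal cells (HC), retinal ganglion cells (RGC), microglia, endothelial cells and pericytes, and 2347 nuclei in 4 clusters were left unnamed.

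Rod nuclei held both catalytic rod subunits, and neither differed between saline and IL-27 beyond the spread between libraries. Levels are CPM, counts scaled to 1000000 of the UMIs summed over a cell type in a library. Pde6a (ENSMUSG00000024575, chromosome 18, 61220315 to 61289924, plus strand, GRCm38 with GENCODE M21), the alpha subunit, was at 1215, 1253 and 1232 CPM in saline replicates 1, 2 and 6 and at 1243, 1245 and 1269 CPM in IL-27 replicates 4, 5 and 10. The 6 values span a narrow range and the groups overlap, with a mean of 1243 ± 18.2 CPM (SD, n = 6) from 23604 UMIs. Pde6b (ENSMUSG00000029491, chromosome 5, 108388391 to 108432397, plus strand), the beta subunit with the rd10 change, was at 1236, 1173 and 1205 CPM in saline and at 1184, 983 and 1071 CPM in IL-27 libraries. IL-27 replicates 5 and 10 were the lowest of the 6, while replicate 4 lay above saline replicate 2, so these groups overlap too. The saline mean was 1205 ± 31.4 CPM and the IL-27 mean 1079.6 ± 100.5 CPM (n = 3 each, SD). With edgeR's quasi-likelihood test the log2 fold change (log2FC, IL-27 over saline) of Pde6b was -0.15 (SE 0.10, unadjusted p 0.129, adjusted p 0.999), and that of Pde6a was 0.02 (SE 0.09, unadjusted p 0.775).

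Set against each other, the catalytic subunits gave Pde6b a share of 47.8% of their 45239 UMIs in rods. Per library this share was 50.4, 48.4 and 49.4% in saline and 48.8, 44.1 and 45.8% in IL-27 libraries. The saline values lay close together and IL-27 replicates 5 and 10 lay below them, but replicate 4 lay within their range. The difference of the means, 49.4 ± 1.04% against 46.2 ± 2.36% (SD, n = 3 each), gave an exact two-sided permutation p of 0.2, where 0.1 is the smallest p that 3 against 3 libraries allow. At the level of nuclei, a Pde6a UMI was found in 73.8% and a Pde6b UMI in 69.6% of rods (95% exact Clopper-Pearson intervals 73.1 to 74.5% and 68.9 to 70.4%, which cover counting error only). After thinning of each nucleus to 1000 UMIs, which left out 3809 rods below that depth, the shares were 68.7% and 65.2%. AC, which do not use the rod enzyme, gave 1.94% and 1.86% at the same depth and 8.49% and 9.13% before thinning, at a median of 5679 UMIs against 1250.0 in rods. At least 1 of the 2 catalytic transcripts was seen in 89.7% of rods, and all 3 rod subunits in 22.2%.

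Pde6g (ENSMUSG00000025386, chromosome 11, 120447605 to 120453500, minus strand), the inhibitory gamma subunit, was at 400 ± 66.0 CPM in rods (SD, n = 6). It was at 421, 408 and 446 CPM in saline and at 446, 269.6 and 409 CPM in IL-27 libraries. The low IL-27 mean rests on replicate 5, the lowest of the 6, and the other two lie between 409 and 446 CPM, where the saline libraries lie between 408 and 446 CPM. The log2FC was -0.17 (SE 0.14, edgeR adjusted p 0.999), and without IL-27 replicate 5 it was 0.01. Levels of different genes were also given per length, which is a choice and not a required step for UMI counts. By CPM alone the order in rods was Pde6a (1243), Pde6b (1142) and Pde6g (400). Per kb of gene span, introns included, the short Pde6g gene was highest in rods at 67.8 CPM per kb, above Pde6b at 26.0 and Pde6a at 17.9. Per kb of exon the order turned, with Pde6a at 265, Pde6b at 227 and Pde6g at 173 CPM per kb.

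Cones held the cone subunits. Pde6c (ENSMUSG00000024992, chromosome 19, 38132781 to 38183958, plus strand), the only catalytic subunit of the cone enzyme, was at 2405, 2354 and 2109 CPM in saline and at 2407, 2721 and 1759.6 CPM in IL-27 libraries. The IL-27 libraries held both the highest and the lowest value, on either side of the saline range. The mean over 6 libraries was 2293 ± 326 CPM from 19408 UMIs, and the log2FC was 0.02 (SE 0.16, edgeR adjusted p 0.999). Pde6h (ENSMUSG00000064330, chromosome 6, 136923832 to 136968865, plus strand), the inhibitory subunit of cones, was at 921, 843 and 814 CPM in saline and at 887, 687 and 899 CPM in IL-27 libraries. IL-27 replicate 5 was the lowest and the groups overlap, with a log2FC of -0.06 (SE 0.13). A Pde6c UMI was found in 97.3% of cones and a Pde6h UMI in 82.8% (84.5% and 54.0% at 1000 UMIs), and 80.7% of cones held both. Of the UMIs of the 3 catalytic genes in cones, 92.8% came from Pde6c. Per kb of gene span Pde6c reached 44.8 CPM per kb in cones against 18.7 for Pde6h, whose annotated span also holds 18068 bases of Arhgdib on the opposite strand.

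**Figure D1:**
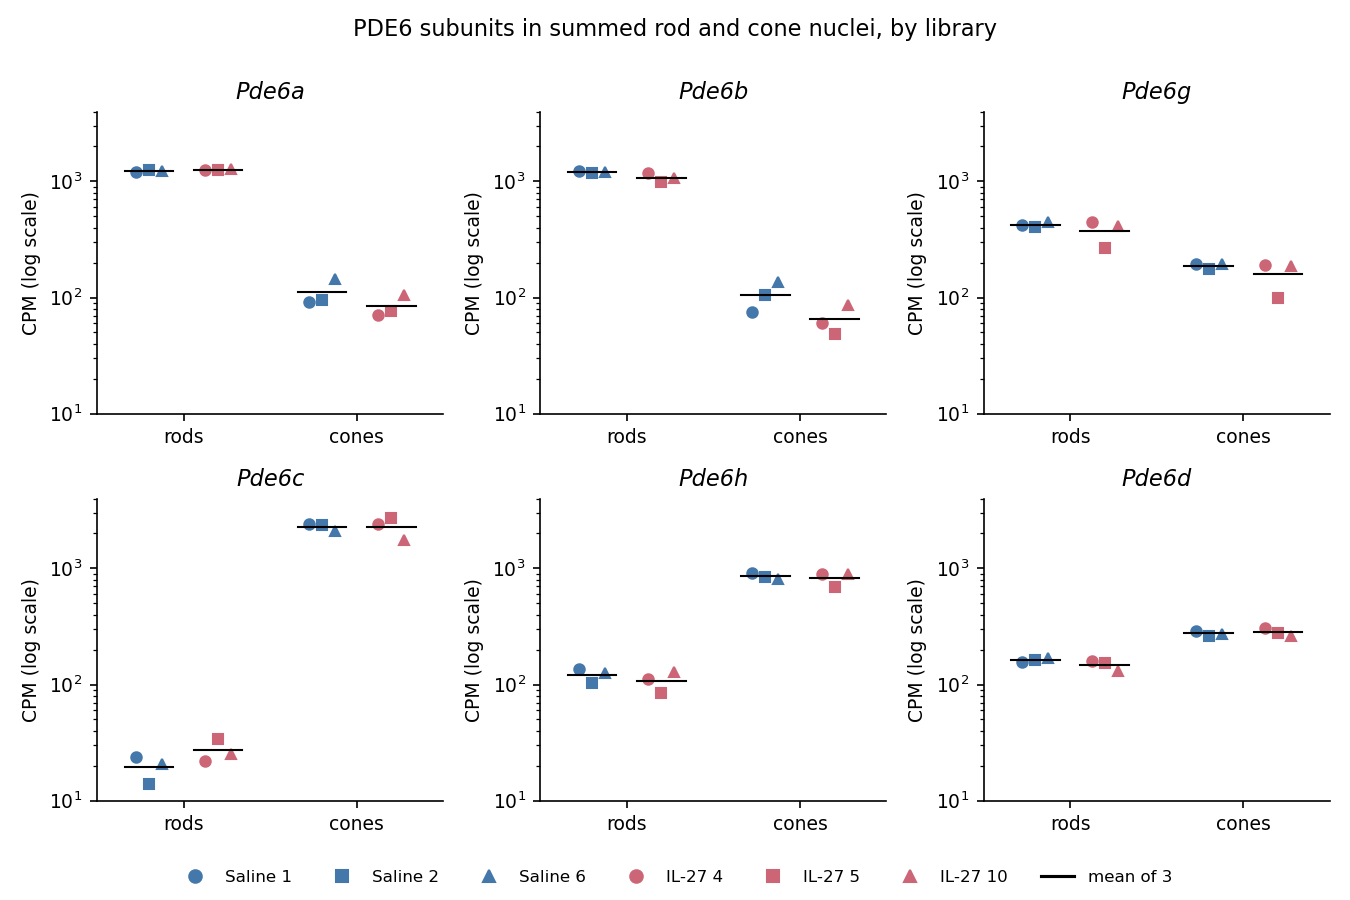
Level of each of the 6 PDE6 subunit genes in rods and in cones, in CPM on a log axis, with 1 point per library and a bar at the mean of each group of 3. Pde6a and Pde6b have means of 1243 and 1142 CPM in rods, Pde6c a mean of 2293 CPM in cones, and saline and IL-27 points overlap in every panel.

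The rod and cone subunits parted the 2 photoreceptor classes to very different degrees. In the same library, Pde6a was 8.5 to 17.6 times as high in rods as in cones (median 13.2) and Pde6b 8.77 to 20.2 times (median 14.6), whereas Pde6g was only 2.16 to 2.70 times as high. On the cone side, Pde6c was 69.5 to 168 times as high in cones as in rods (median 102), Pde6h 6.50 to 8.26 times and Pde6d 1.60 to 2.02 times. These ratios describe cell types that came from clustering the same counts, so no test is given. The inhibitory subunits were thus the less selective member of each pair in all 6 libraries, in rods and in cones.

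In the comparison of treatments, the smallest p-value of the family was that of Pde6b in cones. It was at 74.5, 106 and 137 CPM in saline and at 60.9, 48.8 and 85.5 CPM in IL-27 libraries, from 66 to 177 UMIs per library. IL-27 replicates 4 and 5 lay below every saline library, but replicate 10 lay above saline replicate 1, so the groups overlap. The log2FC was -0.70 (SE 0.20, edgeR unadjusted p 0.00258), which ranked 9 of 10706 genes tested, and the adjusted p was 0.999. Pde6a in cones was at 91.5, 95 and 145 CPM in saline and at 70.8, 76.2 and 105 CPM in IL-27 libraries. Saline replicate 6 was the highest for both genes, and without it the log2FC was -0.15 for Pde6a (from -0.39, SE 0.18, unadjusted p 0.0382 with all 6) and -0.47 for Pde6b. Pde6g in cones, the third rod subunit, was at 195, 175 and 196 CPM in saline and at 189.5, 99.8 and 187 CPM in IL-27 libraries, a log2FC of -0.24 (SE 0.17) that was -0.0026 without IL-27 replicate 5.

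None of the 6 subunits passed an adjusted p of 0.05 in rods or in cones. In rods 1 of 13256 genes passed (0.00754%), and in cones 0 of 10706 (0%) with edgeR. At an unadjusted p under 0.05, 1 of 6 members was higher in rods (Pde6c) against a background of 1.83% of all genes, and 2 of 6 were lower in cones (Pde6a and Pde6b) against 1.93%. DESeq2 called none of the 6 in either type. Among the settings tried, Pde6b in cones was called by edgeR only with no filter on low counts, at a log2FC of -0.70 and an adjusted p of 0.0214, where 2 genes were called higher and 8 lower among 21434. The adjusted p of Pde6b in cones ran from 0.0214 to 0.99998 over 14 alternatives. The groups overlapped for all 6 members in rods and in cones, where 8.35% and 9.1% of the genes tested had groups that do not overlap. The median log2FC over the 6 members was -0.15 in each type, against -9.6e-05 and 0.0012 over all genes. On simulated counts with genes changed by 1.5 on the log2 scale, the same test recovered 96.4% of changed genes in rods and 95.8% in cones. Changes as small as the log2FC values of the members, of which -0.70 is the largest in size, were not simulated. Recovery at that size is therefore not known.

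**Figure D2:**
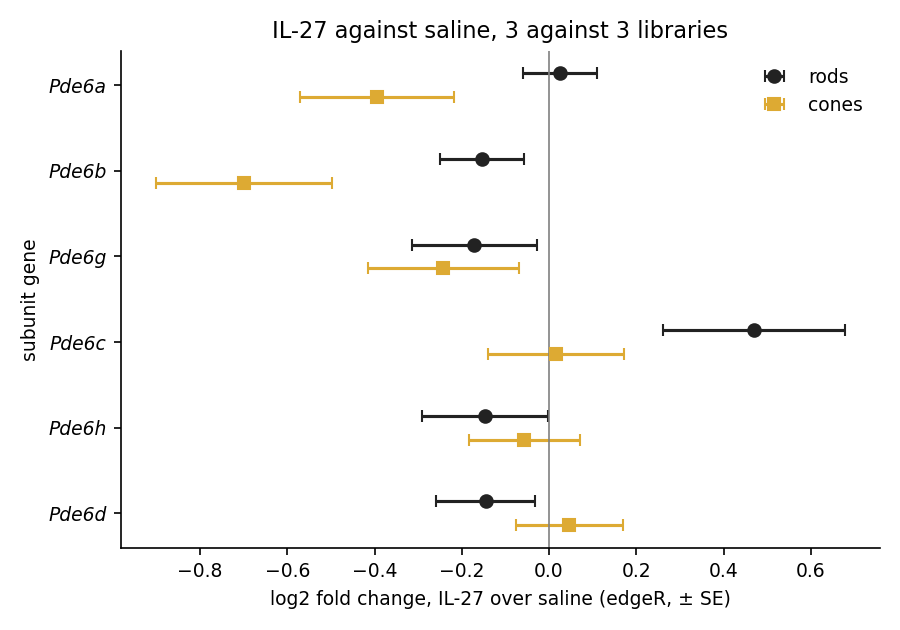
log2 fold change (IL-27 over saline, edgeR) of each PDE6 subunit gene in rods (circles) and cones (squares), with bars of 1 SE; each fit uses 3 against 3 libraries. Values lie between -0.24 and 0.05, apart from Pde6c in rods at 0.47 and the rod subunits Pde6a and Pde6b in cones at -0.39 and -0.70, and none passed the adjusted test.

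Whether the effect differed between the photoreceptor classes was tested in 1 fit over rod and cone sums with the library as a block. The log2FC in cones less that in rods was -0.54 for Pde6b (SE 0.17, unadjusted p 0.00376), -0.51 for Pde6c (SE 0.18, unadjusted p 0.00879) and -0.41 for Pde6a (SE 0.15, unadjusted p 0.00981). All 3 had an edgeR adjusted p of 1 over 13282 genes, of which 4 were called (0.0301%) and 3.86% had an unadjusted p under 0.05. With 1 library left out at a time these differences kept their sign, at -0.77 to -0.34 for Pde6b, -0.69 to -0.27 for Pde6c and -0.58 to -0.20 for Pde6a. Each of the 3 genes is at a low level in the class where its log2FC was the larger one.

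Other rod genes had a negative log2FC in cones as well. Of 10 fixed rod genes (Sag, Gnat1 and Cngb1 among them), 9 had a negative log2FC in cones, with a median of -0.32, a range of -0.45 to 0.10 and 0 called, where 49.7% of all 10706 genes tested in cones were negative and their median was 0.0012. In rods 7 of the same 10 genes were negative (median -0.09), against 50.04% of all genes. Of 7 fixed cone genes, 5 were negative in cones (median -0.07). The summed level of the 10 rod genes in cones was 4366 to 4731 CPM in saline and 3131 to 4541 CPM in IL-27 libraries. The lowest value, in IL-27 replicate 5, stands apart, and this library was the lowest of the 6 for 10 of the 10 rod genes in cones and for 8 of them in rods. As a percentage of its level in rods of the same library, Pde6b in cones was 6.03, 9.04 and 11.4% in saline and 5.15, 4.96 and 7.98% in IL-27 libraries. Gnat1, the alpha subunit of rod transducin, was at 13.9, 18.2 and 19.0% in saline and at 12.8, 11.6 and 15.4% in IL-27 libraries on the same measure. The part of rod RNA carried into cone nuclei in the Pde6a and Pde6b values was not tested.

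The values of these genes in cones depended on which nuclei were summed. With all nuclei in the sums and no limit on outlying UMI counts, Pde6a in cones was at 13.0% of its rod level in place of 7.83%, and Pde6b at 12.7% in place of 7.43%. The log2FC then was -0.67 for Pde6a (adjusted p 0.9999) and -0.90 for Pde6b (adjusted p 0.9999). At 1000 UMIs per nucleus, 6.84% of cones held a Pde6a UMI and 5.69% a Pde6b UMI (95% exact Clopper-Pearson intervals 5.98 to 7.78% and 4.90 to 6.56%), above the 1.94% and 1.86% of AC. Before thinning the shares were 15.5% and 13.2% of cones against 8.49% and 9.13% of AC. By library the thinned Pde6b share of cones was 4.48, 7.01 and 8.16% in saline and 4.87, 3.04 and 7.41% in IL-27 libraries, with overlapping groups. The maximum was 10 Pde6b UMIs in a single cone nucleus and 12 in a rod nucleus, before thinning.

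As a percentage of its level in its own class, Pde6c in rods (1.03%) lay below Pde6a and Pde6b in cones (7.83% and 7.43%), and Pde6h in rods (13.6%) lay above both. Pde6c in rods was at 23.6, 14 and 20.7 CPM in saline and at 22, 34 and 25.3 CPM in IL-27 libraries, from 46 to 111 UMIs. IL-27 replicate 5 was the highest, where it was the lowest for Pde6b, Pde6g and Pde6h, and saline replicate 2 was the lowest. The log2FC was 0.47 (SE 0.21, edgeR unadjusted p 0.0388, adjusted p 0.999), and it was 0.27 when saline replicate 2 was left out and 0.30 when IL-27 replicate 5 was. A Pde6c UMI was found in 1.84% of rods at 1000 UMIs against 0.613% of AC. Before thinning the order was the reverse, at 2.44% of rods and 2.99% of AC, with medians of 1250 and 5679 UMIs. The part of depth in this contrast was not tested. Pde6h in rods was at 136, 102 and 125 CPM in saline and at 111, 83.8 and 129 CPM in IL-27 libraries, a log2FC of -0.15 (SE 0.14). Its thinned share of 10.2% of rods compares with 2.67% of AC, and its share before thinning was 13.7% against 12.3%.

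Other retinal cell types are not known to use rod or cone PDE6, and their counts of these subunits were set beside those of other photoreceptor genes. Over the 9 types other than rods and cones, Pde6a was at 0.960% (HC) to 5.99% (pericytes) of its rod level. Pde6b was at 0.969% (RGC) to 8.70% (pericytes). The pericyte values rest largely on IL-27 replicate 10, with 19 of 26 Pde6a UMIs and 20 of 31 Pde6b UMIs. Median depth was 10036.5 UMIs in HC, 9925.5 in RGC and 2412 in pericytes, and the part of depth in these percentages was not tested. Pde6a lay below all 10 fixed rod genes in 9 of 9 types. Pde6b lay below all 10 in 7 types, with 9 of the 10 above it in cluster 1 and 8 in pericytes. In AC, for example, Pde6a was at 1.63% and Pde6b at 1.84%, while the rod genes ran from 2.14% (Cngb1) to 9.10% (Gngt1) with a median of 3.26%. The catalytic subunits stood at the bottom of the rod genes in most types, and why the rod genes differed among themselves was not tested.

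Pde6g stood at the other end of that order. It was at 7% of its rod level in AC, 9.75% in BC, 18.7% in microglia and 25.9% in endothelial cells. In 7 of the 9 types the only rod gene above it was Gngt1, the gamma subunit of rod transducin. In BC 2 rod genes were above it and in endothelial cells none. The endothelial value rests on 58 Pde6g UMIs, with 3 to 17 per library. In cones, however, Pde6a at 7.83% and Pde6b at 7.43% lay just above the lowest rod gene (Cngb1, 6.55%), and Pde6g reached 43.1%, with only Sag higher at 61.6%. With no removal of doublets the AC values of Pde6a and Pde6b were 2.49% and 2.61%.

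**Figure D3:**
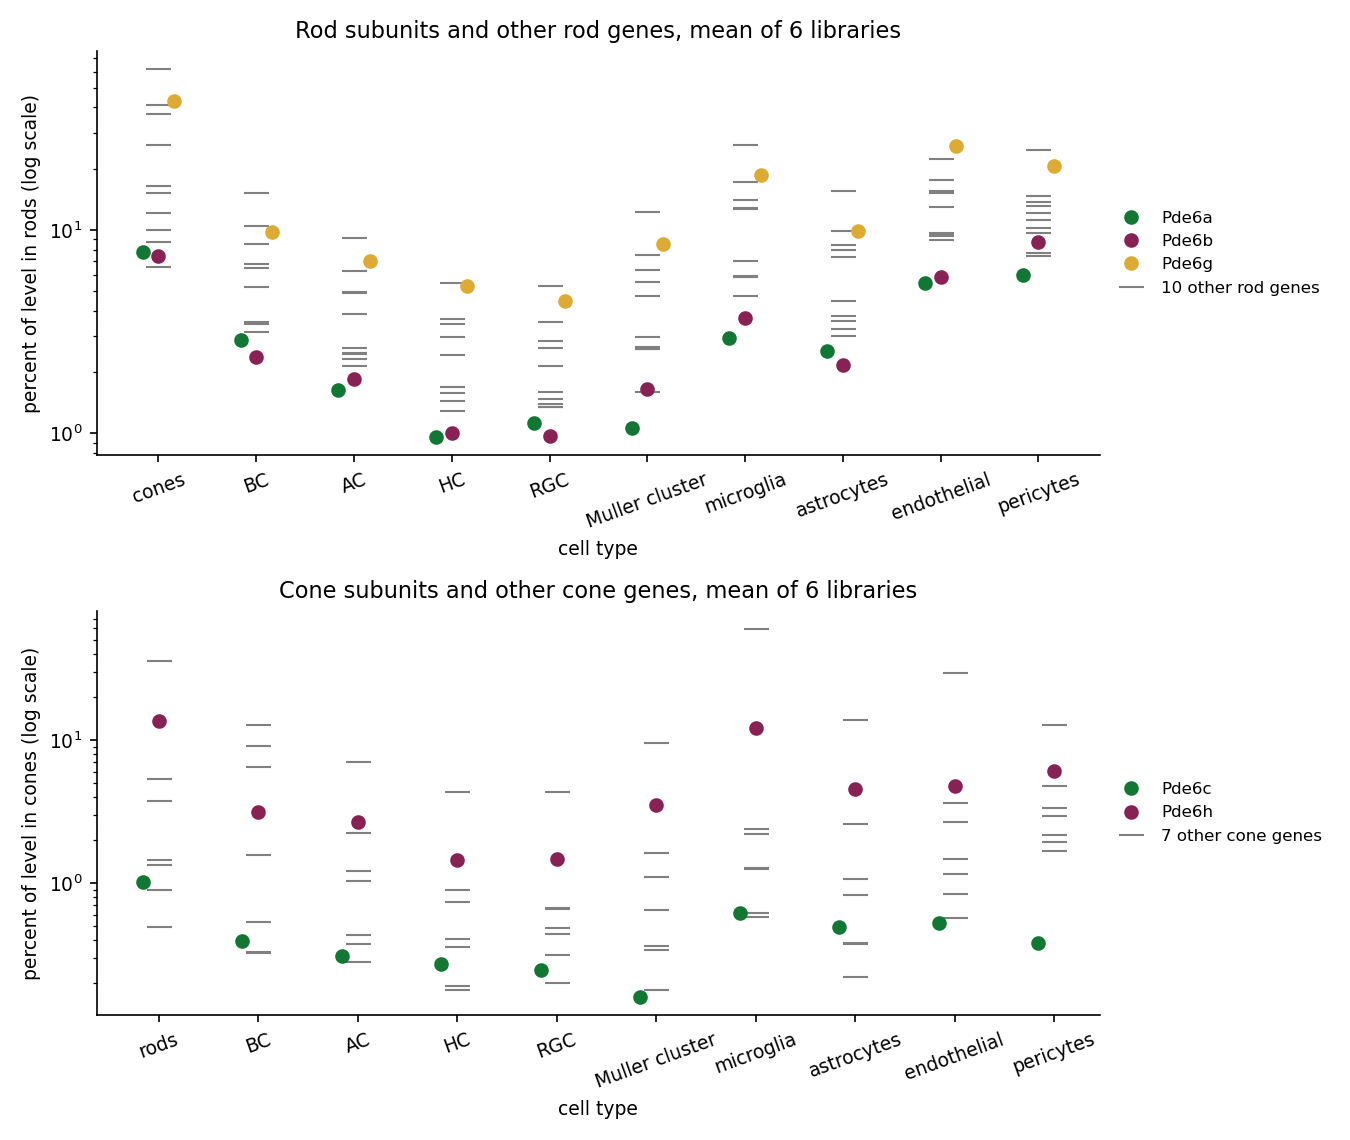
Level of each rod or cone subunit gene in every other cell type as a percentage of its level in rods or cones of the same library (mean of 6 libraries, log axis), beside the same percentage for 10 rod and 7 cone reference genes (grey). Pde6a and Pde6b lie at or below the lowest rod reference genes in most types, Pde6g near the highest, and Pde6h above most cone reference genes.

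Pde6c was at 0.161% (cluster 1) to 0.623% (microglia) of its cone level in the 9 types and at 1.03% in rods. It lay below all 7 fixed cone genes in 3 of the 9 types, with 4 to 6 of the 7 above it in the other types and 5 in rods. Those 3 types were cluster 1, endothelial cells and pericytes, with 79, 10 and 2 Pde6c UMIs over the 6 libraries. Pde6h was at 1.44% (HC) to 12.0% (microglia) and at 13.6% in rods. In 8 of the 9 types and in rods the only cone gene above it was Gngt2, the gamma subunit of cone transducin, and in BC 3 were above it. Gngt2 was at 59.4% of its cone level in microglia and 35.3% in rods, where the median of the 7 cone genes was 1.28% and 1.45%. In microglia Pde6h reached 102 ± 24.7 CPM (SD, n = 6), at 96.1, 87.9 and 134 CPM in saline and 97.5, 67.8 and 126 CPM in IL-27 libraries. These levels overlap with those of rods and exceed the 30.1 CPM of cluster 1. Median depth was 2089.5 UMIs in microglia and 4468.5 in cluster 1, and a nucleus held a mean of 0.218 and 0.142 Pde6h UMIs. Arhgdib, a GDP-dissociation inhibitor of small GTPases in blood-derived cells that lies opposite Pde6h, was at 78.7 ± 11.5 CPM in microglia, 16.4 CPM in cones and 4.22 CPM in rods. Its part in the Pde6h counts of microglia was not tested. The strand setting of the counting is not given in the sources used here. Without strand the reads of the 2 genes cannot be told apart in the 18068 bases they share.

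Pde6d (ENSMUSG00000026239, chromosome 1, 86542994 to 86582629, minus strand), the prenyl-binding delta subunit, was present in all 11 types. In rods it was at 155, 163 and 171 CPM in saline and at 159, 152 and 130.3 CPM in IL-27 libraries, a log2FC of -0.15 (SE 0.11, edgeR unadjusted p 0.217). In cones it was at 289.6, 262 and 274 CPM in saline and at 304, 279 and 264 CPM in IL-27 libraries, a log2FC of 0.05 (SE 0.12). In cones IL-27 replicate 4 lay above the saline range and the other two within it, and in rods replicates 5 and 10 lay below it. Cones were highest at 279 ± 16 CPM, rods followed at 155 ± 13.8 CPM, and their ranges over the 6 libraries overlapped neither with each other nor with those of the other types. Microglia (58.1 ± 11.3 CPM), endothelial cells (45.1 ± 18.3 CPM), BC (44.5 ± 1.84), astrocytes (42.4 ± 10.7), cluster 1 (42.0), HC (38.0), pericytes (37.7 ± 16.9), AC (37.3 ± 1.31) and RGC (36.6) each overlapped with the next in the order. The levels in endothelial cells, astrocytes and pericytes rest on 26, 49 and 10 Pde6d UMIs over the 6 libraries. In AC the 3 saline libraries, at 39.0, 37.5 and 38.5 CPM, all lay above the 3 IL-27 libraries, at 36.2, 37.0 and 35.6 CPM. This separation came with a log2FC of -0.07 (SE 0.08, edgeR unadjusted p 0.420), and 5.09% of 16704 genes tested in AC had all saline above all IL-27 libraries.

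**Figure D4:**
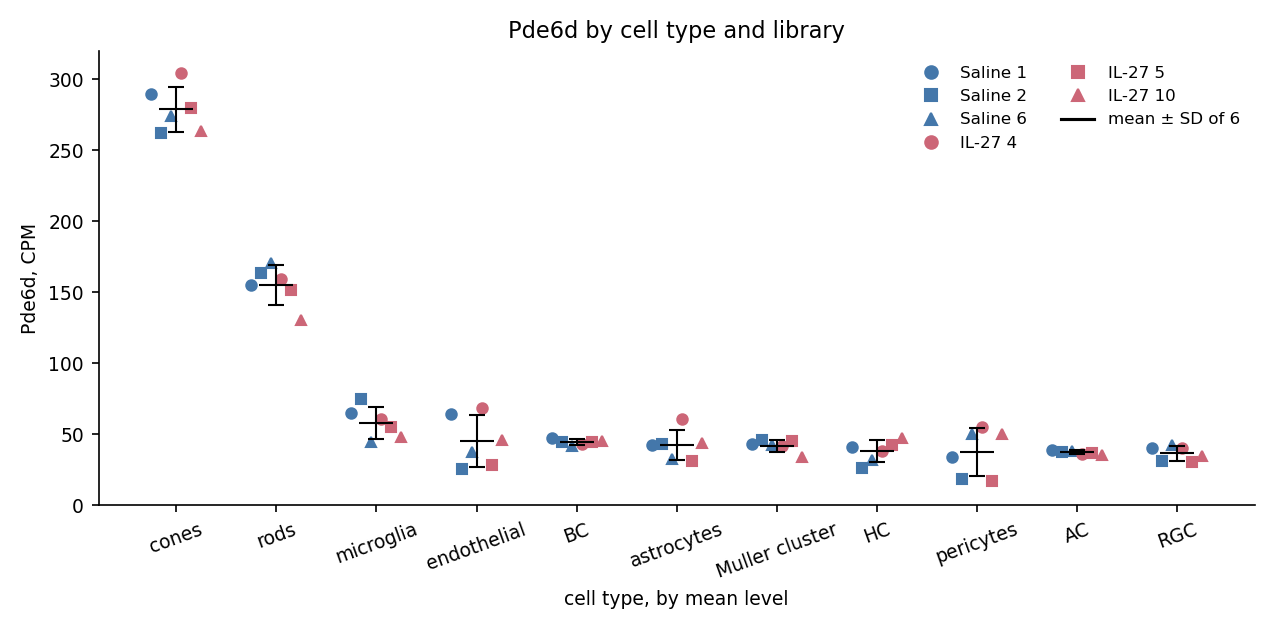
Level of Pde6d in each of 11 cell types, in CPM, with 1 point per library (3 saline, 3 IL-27) and a bar at the mean of 6. Cones (279 CPM) and rods (155 CPM) stand clear of the other types, which lie between 36.6 and 58.1 CPM.

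Outside rods and cones the filter on low counts left 6 members for the test in BC, AC, RGC and cluster 1, 5 in HC and microglia, 1 in endothelial cells and none in astrocytes and pericytes. None was called in any of these types, where edgeR called 0% of all genes tested in BC, HC, RGC, microglia and endothelial cells, 0.00599% in AC and 0.0369% in cluster 1. Pde6g had an unadjusted p under 0.05 in RGC (log2FC -0.50, SE 0.23, p 0.0492) and in microglia (log2FC -0.77, p 0.0270), where 1.94% and 1.44% of genes tested were that low. In RGC it was at 23.0, 19.3 and 20.7 CPM in saline and at 16.1, 8.80 and 20.3 CPM in IL-27 libraries. In microglia it was at 117, 64.3 and 101 CPM in saline and at 69.7, 29.9 and 78.7 CPM in IL-27 libraries, from 26 to 72 UMIs. IL-27 replicate 5 was the lowest in both, and without it the log2FC was -0.22 in RGC and -0.38 in microglia. The summed level of the 10 rod genes in microglia was 1149 to 1439.6 CPM in saline and 628 to 1745 CPM in IL-27 libraries, lowest in the same replicate.

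Over the 11 types, IL-27 replicate 5 was the lowest of the 6 libraries for Pde6h in 10 types, for Pde6g in 9, for Pde6b in 7 and for Pde6a in 4. For Pde6c it was the highest in 6 types, and for Pde6d the lowest in 3. IL-27 replicate 10 was the highest for Pde6a in 7 types and for Pde6b and Pde6g in 5 each. Both replicates belong to the IL-27 group. Replicate 10 also held the most rods (3309 in the sum) and replicate 5 fewer (1920). Saline replicate 6 held the fewest (1861). It was the lowest library for Pde6b, Pde6c and Pde6d in 2 types each, for Pde6a and Pde6g in 1 each and for Pde6h in 0. The part of these numbers in the levels of other types was not tested.

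Within rods, a clustering resolution of 0.5 in place of 0.25 split the nuclei into 2 clusters that both held all 6 libraries. In the cluster with fewer UMIs (library medians of 954.5 to 1052) Pde6b was at 893 to 1104 CPM, Pde6g at 276 to 536 CPM and Pde6c at 22.2 to 47.7 CPM. In the cluster with more UMIs (medians of 1466 to 1655) Pde6b was at 1059 to 1321 CPM, Pde6g at 252 to 395 CPM and Pde6c at 9.68 to 17.6 CPM. In each library Pde6b was higher and Pde6g, Pde6c and Pde6h were lower in the cluster with more UMIs. The median mitochondrial share was 0.853 to 1.14% in the former and 0.666 to 0.773% in the latter, and the part of RNA quality in this difference was not tested.

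The genes most like each subunit were ranked by Pearson's r of log2(CPM + 1) over 66 sums (11 types in 6 libraries) among 15223 genes, as a description of sums that share libraries and depth. Pde6b was most like Cnga1 (r 0.946), the rod cGMP-gated channel, followed by Hmgn1, Nrl, Cngb1 and Sag. Pde6g was most like Pdc (r 0.920), encoding phosducin, which binds transducin, followed by Tma7, Gngt1, Rcvrn and Ndufa4. Pde6a was most like Prph2 (r 0.864), an outer-segment disc protein, followed by A930014D07Rik, Rdh12, Ano2 and Frmpd2. Among members, Pde6a and Pde6b reached an r of 0.789 and Pde6b and Pde6g 0.817, while Pde6b and Pde6c reached 0.198. Pde6h was most like Rbp3 (r 0.819), the interphotoreceptor retinoid-binding protein, followed by Pde6d (0.808), Gnat2, Dgkd and Smim13. Pde6d was most like Enam (r 0.906), followed by Supt16, Gm11961, Gm15850 and Fcamr, and Pde6c like Gm10685 (r 0.881), Amtn, Gm15348, Gm47887 and Gm38389.

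The rest of the cGMP cascade was followed in 6 fixed lists with 53 genes. In rods 48 were tested and 0 passed an edgeR adjusted p of 0.05, where 0.00754% of all genes passed. Of these 48, 23 had a positive and 25 a negative log2FC, and 1 higher and 1 lower had an unadjusted p under 0.05. At that threshold 243 of all 13256 genes were higher and 214 lower. In cones 44 were tested and 0 passed (0% of all genes), with 18 positive and 26 negative. At an unadjusted p under 0.05, 0 were higher and 3 lower, against 182 and 207 of all 10706 genes. Over all genes, 50.04% in rods and 49.7% in cones were negative. For the 14 genes of PDE6 folding, prenylation and transport the median log2FC was -0.0024 in rods and, with 13 tested, 0.0025 in cones, against -9.6e-05 and 0.0012 over all genes. The 4 genes of cGMP synthesis were at a median of -0.06 in rods and -0.26 in cones, where 4 of 4 were negative and none had an unadjusted p under 0.05. Visual pigment and transducin genes (9 tested in each) were at medians of -0.01 in rods and -0.08 in cones, and shutoff genes (8 in each) -0.09 and -0.14. Channels, exchangers and kinases had medians of -0.04 in both (6 and 7 tested), and the other cGMP-hydrolysing phosphodiesterases 0.11 and 0.15 (7 and 3 tested).

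By smallest unadjusted p, the leading cascade genes in rods were Pde10a, a phosphodiesterase for cAMP and cGMP, and Opn1sw, the short-wavelength cone pigment. Pde10a was at 256 ± 35.5 CPM in saline and 319.7 ± 53.7 CPM in IL-27 rods (SD, n = 3 each), a log2FC of 0.32 (SE 0.13, edgeR unadjusted p 0.0202). Opn1sw was at 37.9 ± 13.5 and 21.4 ± 11.3 CPM, a log2FC of -0.75 (SE 0.30, unadjusted p 0.0247). Pde3b (0.69), Pggt1b (0.22), Guca1b (-0.24) and Gngt1 (-0.29) followed in rods on the log2FC scale, each with an unadjusted p over 0.05. In cones the lowest p belonged to Rgs9bp, the membrane anchor of the complex that turns transducin off, with a saline mean of 81.1 ± 7.44 CPM and an IL-27 mean of 60.0 ± 0.937 CPM (n = 3 each, SD), a log2FC of -0.43 (SE 0.15, unadjusted p 0.00949). Pdc (-0.41, unadjusted p 0.0107) and Gnat1 (-0.45, unadjusted p 0.0265), the alpha subunit of rod transducin, followed, and both belong to the 10 rod genes above. Slc24a2, a potassium-dependent sodium-calcium exchanger (0.18), Pde10a (0.19) and Cnga3, the cone channel (0.17), were the positive ones. All 12 values had an edgeR adjusted p of 0.999.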

How the data were processed

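The deposited values are UMI counts per gene and barcode. The authors made these counts from single-nucleus droplet libraries with Cell Ranger and deposited them unnormalized for every called barcode; the submitters' processing notes give Cell Ranger 9.0.1 and Seurat 5.2.1, while the file headers name Cell Ranger 8.0.1. The strand setting and genome build of the counting are not given in the sources used here. Positions were read from the GENCODE M21 annotation (GRCm38), which held 32158 of the 32285 gene identifiers (99.6%).

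A barcode was kept if it held over 500 UMIs and 200 or more genes and less than 5% of its counts were mitochondrial. Scrublet scores (scanpy 1.11.5; expected rate 8%, reduced by the homotypic share) removed 622 to 724 doublets per library. Nuclei were clustered by the Louvain method (igraph 0.11.9; 2000 variable genes without the 6 subunits, 25 components, 20 neighbours, resolution 0.25, seed 20) without integration, and clusters with at least 3 fixed markers in 10% of nuclei were named. UMIs were summed per library and type over nuclei whose log2 UMI count lay within 2 median absolute deviations of the median. Types with at least 10 nuclei in every library were tested with edgeR 4.0.16 in R 4.3.3 (TMM, filterByExpr at 10 counts, quasi-likelihood, Benjamini-Hochberg over all genes of a type); DESeq2 1.42.0 was an alternative. The fits were tested on simulated data and called 10 false genes in rods and 12 in cones. Precision is limited by 46 to 5559 UMIs per member and library in rods and 66 to 3911 in cones. Intervals cover counting error only.

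The members and gene lists were chosen with earlier results of these data known. Named were the 6 members, and, from the cascade lists, genes past an adjusted p of 0.05 and up to 3 per direction with the smallest p in rods and in cones. The 5 genes most like a member were taken among genes with a mean of at least 10 CPM in some type. Other settings tried were DESeq2, its size factors, library totals, no filter on low counts, all nuclei summed, a 1% mitochondrial limit, no removal of doublets, a resolution of 0.5, no thinning and each library left out in turn. One member of the fixed lists is not reported here on its own.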

Additional observations from a re-analysis of the deposited data

How the results depend on the processing

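No paired analysis was possible because the saline and IL-27 groups share no replicate numbers. None of the 6 members passed an adjusted p of 0.05 in rods, in cones or in other types under any setting tried, except that 1 (Pde6b in cones, log2FC -0.70, adjusted p 0.0214) passed with no filter on low counts. That setting also raised the number of genes called from 1 higher and 0 lower to 18 and 10 in rods, and from 0 and 0 to 2 and 8 in cones; the cause was not tested. With 1 library left out, 1 gene was called higher and 0 to 2 lower in rods. In cones 0 to 2 were then called higher and 0 to 3 lower. The sign of some small log2FC values turned. With 1 library left out the log2FC of Pde6g in rods ran from -0.33 to 0.013 (without IL-27 replicate 5), of Pde6c in cones from -0.13 to 0.19 (negative when saline replicate 6, or either of IL-27 replicates 4 and 5, was left out), of Pde6h in cones from -0.12 to 0.053 (positive without IL-27 replicate 5) and of Pde6d in cones from -0.020 (without IL-27 replicate 4) to 0.12. Pde6h in cones was 0.0087 with all nuclei summed and Pde6c in cones -0.0018 with no removal of doublets. Among levels, Pde6a in rods was 1269 CPM with the 1% mitochondrial limit. With no removal of doublets, Pde6a and Pde6b in AC were at 2.49% and 2.61% of their rod level and Pde6c at 0.495% of its cone level. With all nuclei summed, Pde6a and Pde6b in cones were at 13.0% and 12.7% of their rod level. Of 222 recomputed counts of members called, levels by cell type, percentages of the level in rods or cones and shares of Pde6b among catalytic UMIs, 215 were kept. Counts were judged by size, levels and percentages by the SD over libraries, and shares of Pde6b by direction and side of the threshold. Of 245 recomputed log2FC values of single genes, their differences between cones and rods, and thinned shares of nuclei, 231 were kept. Log2FC values and their differences were judged by direction and side of the threshold and not by size, and thinned shares by their interval. Pde6a in cones, for example, was kept in all 14 alternatives while its log2FC ran from -0.67 to -0.15. Low counts limit the rod subunits in cones and Pde6c in rods.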
